A study of Mus musculus with 9 samples.

Results

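The first postnatal week of the mouse heart was examined by comparing P7d hearts with P1d hearts, 3 of each, gene by gene. Of the 48820 genes in the deposited table, 13474 averaged 1 FPKM or more in these 6 hearts and were kept, and 12028 of them are protein-coding. FPKM is the number of sequenced fragments per kilobase of transcript and per unit of library depth. All animals were untreated wild-type C57BL/6J mice labelled as male, the whole heart was taken, and each column is a separate biological replicate of total RNA-seq prepared with an NEBNext Ultra kit after TRIzol extraction. The series also holds 3 hearts at E18.5d, which share in the estimate of the spread but are not compared here. A whole heart mixes cardiomyocytes with vessel, stromal and blood cells, and in such bulk RNA fewer cells of a type and less RNA per cell cannot be told apart. Because genes of fatty acid oxidation, oxidative phosphorylation, glycolysis, the cell cycle and ketone bodies already had lists in the study (5 lists, 294 tested genes), those genes were left out of the 61 lists of other functions used here.

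In the days after birth the mouse heart turns from a growing organ, whose muscle cells still divide, to one that grows mainly by enlarging its muscle cells. Sarcomere proteins are exchanged for adult forms, calcium stores and ion channels mature, and the capillary bed and matrix expand with the load. Hormones of the birth period, above all glucocorticoids and thyroid hormone, act on the heart in the same days.

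Several features of the libraries bear on what follows. The steps between low FPKM values gave 27000000 to 29500000 fragments for the P1d hearts and 35250000 to 43000000 for the P7d hearts, so that 3 fragments on 1 kilobase are worth 0.0698 to 0.1111 FPKM. Small structural RNAs took 55.1% to 62.3% of the FPKM sum of a heart. Although every animal is labelled as male, *Xist*, the RNA of the inactive X chromosome, stood at 58.03 and 69.96 FPKM in P7d replicates 2 and 3, where the Y-linked *Ddx3y*, *Eif2s3y*, *Kdm5d* and *Uty* were listed at 0. In the P1d hearts and P7d replicate 1, *Xist* was at most 0.11 FPKM and *Ddx3y* was 15.5, 13.5 and 16.4 FPKM at P1d and 12.9 FPKM in that P7d heart. Of the E18.5d hearts, replicates 1 and 3 held *Xist* at 82.6 and 97.03 FPKM with *Ddx3y* and *Eif2s3y* listed at 0, so 4 of the 9 hearts in the fit had *Xist*. Stage and the *Xist* class therefore overlap in part, and counts from a fit with a term for *Xist* above 1 FPKM (the *Xist* term, informed by all 4) are given beside the lists. Where counts are given without the hearts with *Xist*, P7d replicates 2 and 3 were left out and the E18.5d hearts stayed. In that fit P7d replicate 1 stands alone for its stage, and fewer of all genes pass. Its list counts are read against the counts over all genes of the same fit, given in the last section. P1d replicate 1 held airway transcripts, with *Scgb3a1* at 270.3 FPKM and *Scgb3a2* at 179 FPKM, and P1d replicate 2 held liver transcripts, with *Alb* at 15.9 FPKM and *Afp* at 4.08 FPKM. The heart itself was well marked, since *Myh6*, the adult-type myosin heavy chain, was 6846, 6408 and 6958 FPKM at P1d and 7980.3, 8409 and 8564 FPKM at P7d.

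Changes were tested with limma on log2(FPKM + 1), which understates the change of genes of low FPKM, and p-values were adjusted by Benjamini-Hochberg over all 13474 genes and called under 0.05. A log2 change is given ± its standard error, and a mean FPKM ± the SD of 3 hearts. On the deposited scale 2097 genes rose (15.6%) and 3895 fell (28.9%), and the median change of all genes was -0.095 on the log2 scale. Rescaling each heart by the median of its ratios to the average heart moved that median by 0.096, and 2976 genes (22.1%) were then higher and 2696 (20.0%) lower. Each list is therefore given on both scales, with the counts that rose and fell by median of ratios (MoR) and then with the *Xist* term in brackets. A gene is called robust below where it passed the threshold on both scales and its P1d and P7d hearts did not overlap, which held for 2045 higher genes (15.2%) and 2680 lower genes (19.9%). Most changes were modest. The median size was 0.486 for the genes that rose and 0.448 for those that fell on the log2 scale, and 242 genes rose and 318 fell by at least 1. Counts of list members on the deposited scale are read against 15.6% higher and 28.9% lower. The MoR counts are read against 22.1% and 20.0%. With the *Xist* term 1458 of all 13474 genes rose and 2436 fell, and the counts with that term are read against these. At an unadjusted p under 0.05 in limma, 2479 of all 13474 genes were higher and 4600 lower. List counts at that p are read against these. In a list of few genes, having none in a direction says little. Counts describe a list and are not a test of it.

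**Figure D1:**
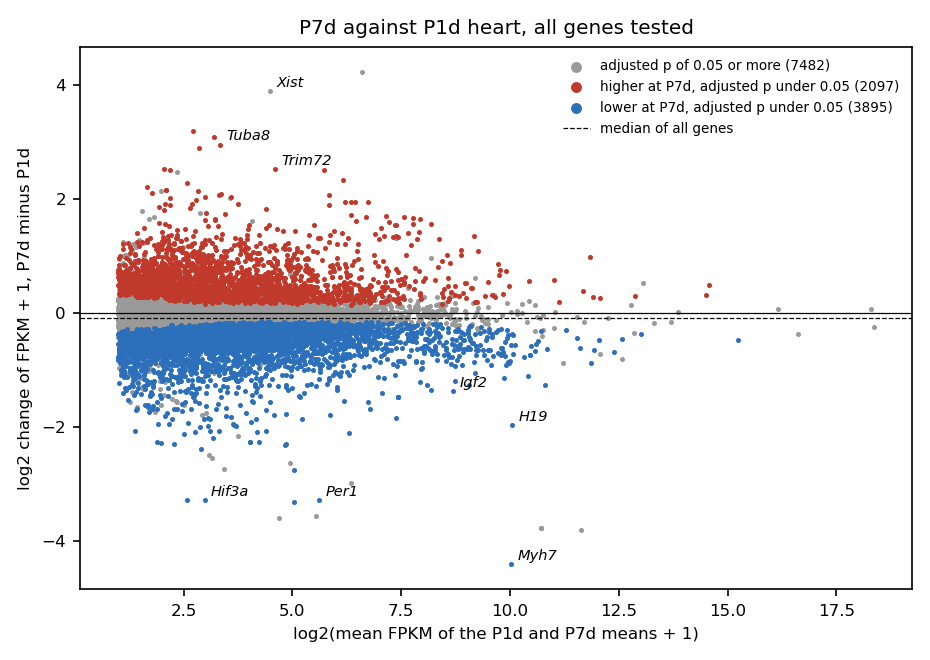
Log2 change of FPKM + 1 from P1d to P7d (y axis) against the mean level of the 6 hearts on a log2 scale (x axis), with 1 point for each of 13474 genes. The 2097 genes that rose are red and the 3895 that fell are blue, and the dashed line marks the median of all genes at -0.095.

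**Figure D2:**
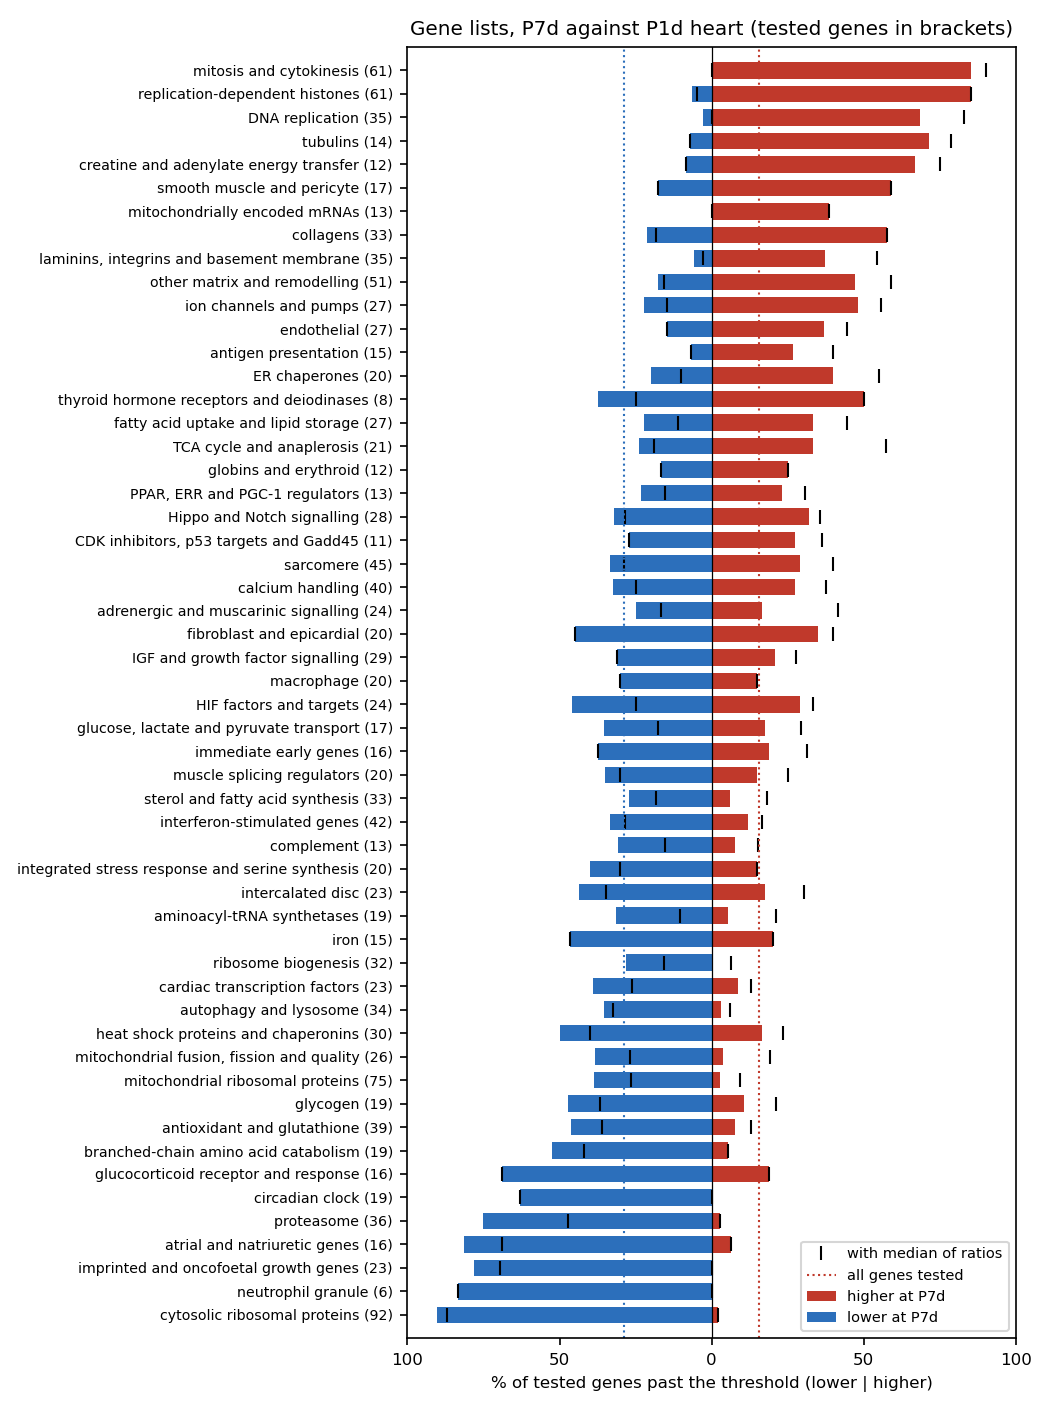
Percent of the tested genes of each list shown that rose (red, to the right) or fell (blue, to the left) from P1d to P7d. The lists of lymphocyte genes, of sex genes and of other tissues (Schwann and neuronal, adipocyte, liver, lung and airway, skeletal muscle) are not drawn. Black ticks give the percent on the median of ratios scale. Dotted lines mark all genes tested on the deposited scale, at 15.6% and 28.9%, and the ticks are read against 22.1% and 20.0%. Mitosis, histones and DNA replication lie far to the right, and cytosolic ribosomal proteins, atrial genes and imprinted genes far to the left.

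Among the coding genes that rose most were several of the muscle cell skeleton and membrane. *Tuba8*, an alpha-tubulin (chr6:121210696-121226854, plus strand, GRCm38), was 1.09, 1.43 and 1.45 FPKM in the P1d hearts and 14.4, 19.5 and 17.2 FPKM in the P7d hearts, and its P7d hearts all lay above the P1d hearts (log2 change 2.95 ± 0.14, adjusted p = 3.1e-06). *Mapt*, the microtubule-binding protein tau, was 0.67, 0.98 and 0.51 FPKM at P1d and 13.2, 10.9 and 10.9 FPKM at P7d (log2 change 2.88 ± 0.15, adjusted p = 4.32e-06). *Trim72*, which takes part in repair of the muscle cell membrane, rose to a level seen in no P1d heart, with 7.08, 5.23 and 6.5 FPKM at P1d and 40.6, 38.3 and 42.8 FPKM at P7d (log2 change 2.52 ± 0.10, adjusted p = 1.56e-06). *Ankrd23*, a stress-responsive ankyrin repeat protein of the sarcomere, was 15.4, 12.8 and 16.1 FPKM at P1d and 78.3, 87.1 and 100.3 FPKM at P7d (log2 change 2.51 ± 0.11, adjusted p = 2.24e-06). *Rxrg*, a retinoid X receptor, went from 1.03 ± 0.121 to 8.84 ± 1.06 FPKM and *Lrtm1*, a leucine-rich repeat membrane protein, from 1.72 ± 0.808 to 10.6 ± 0.391 FPKM. *Itgb6*, an integrin subunit, was 0.2, 0.19 and 0.29 FPKM at P1d and 6.43, 5.97 and 5.64 FPKM at P7d (log2 change 2.51 ± 0.57, adjusted p = 0.00641). *Ucp1*, the uncoupling protein of brown fat, was at 0.05, 0 and 1.31 FPKM at P1d and 5.77, 7.26 and 6.84 FPKM at P7d (log2 change 2.499 ± 0.28, adjusted p = 0.000146), while of 6 adipocyte genes tested 1, *Ucp1* itself, rose and 3 fell (MoR 1 and 2, *Xist* term 1 and 1). Of these, *Car3* fell from 9.58 ± 2.42 to 3.63 ± 0.938 FPKM and *Fabp4*, which endothelium also makes, was 614, 491 and 475 FPKM at P1d and 409, 353 and 416 FPKM at P7d, while *Plin1* was 1.38, 0.28 and 1.14 FPKM at P1d and 1.34, 1.42 and 1.31 FPKM at P7d. *Gm10197* was listed at 0 in every P1d heart and at 13.1, 1.75 and 18.9 FPKM at P7d, after a mean of 64.4 FPKM at E18.5d.

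The largest fall of all was that of *Myh7*, the slow, foetal-type myosin heavy chain (chr14:54970684-54994626, minus strand), with 2305, 2017 and 1631 FPKM in the P1d hearts and 143, 54.1 and 98.6 FPKM in the P7d hearts (log2 change -4.41 ± 0.28, adjusted p = 1.06e-05). The lowest P1d heart was still far above the highest P7d heart. *Mt2*, a metal-binding metallothionein, was 61.8, 70.1 and 43.9 FPKM at P1d and 5.93, 3.12 and 6.04 FPKM at P7d (log2 change -3.32 ± 0.23, adjusted p = 1.37e-05). *Per1*, a clock gene that glucocorticoids also induce, was 86.2, 104 and 72.7 FPKM at P1d and 8.54, 8.95 and 6.65 FPKM at P7d (log2 change -3.29 ± 0.14, adjusted p = 2e-06). *Hif3a*, a hypoxia-inducible factor subunit, dropped from 17, 15.6 and 7.62 FPKM to 0.35, 0.39 and 0.49 FPKM (log2 change -3.28 ± 0.23, adjusted p = 1.51e-05), with P1d replicate 3 the lowest of the P1d hearts. The same heart was lowest for *Sult1a1*, a sulfotransferase (53.8, 65.9 and 22.4 FPKM at P1d and 7.01, 7.89 and 9.07 FPKM at P7d), for *Slc10a6*, a carrier of steroid sulfates (6.42, 7.99 and 2.63 FPKM at P1d and 0.29, 0.25 and 0.29 FPKM at P7d), and for *Tent5b*, a poly(A) polymerase family member (5.11, 8.1 and 2.51 FPKM at P1d and 0.25, 0.15 and 0.22 FPKM at P7d). None of these overlapped between stages. *Apoc1*, an apolipoprotein, fell from 11.6 ± 3.56 to 1.35 ± 0.169 FPKM, and *Dlk1*, an imprinted foetal growth gene whose values are repeated under another identifier, from 25.97 ± 3.75 to 4.62 ± 0.539 FPKM. *Ahsg*, a plasma protein made by the foetal liver, was 30.4, 46.4 and 14.9 FPKM at P1d and 5.09, 5.01 and 4.92 FPKM at P7d, highest in P1d replicate 2, the heart with liver transcripts. Among robust genes not annotated as coding, with at least 5 FPKM at a stage, *Gm27928* fell most (log2 change -3.27 ± 0.49, adjusted p = 0.000685 in limma). It was listed at 0 in every P7d heart. An identifier without a gene name fell by 2.75 ± 0.92, and the lincRNA *Gm12840* followed (log2 change -2.31 ± 0.21, adjusted p = 5.46e-05). Identifiers without a gene name rose by 1.95 ± 0.19 and 1.37 ± 0.18, and the antisense RNA *Gm11816* rose as well (log2 change 1.32 ± 0.24, adjusted p = 0.00203).

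**Figure D3:**
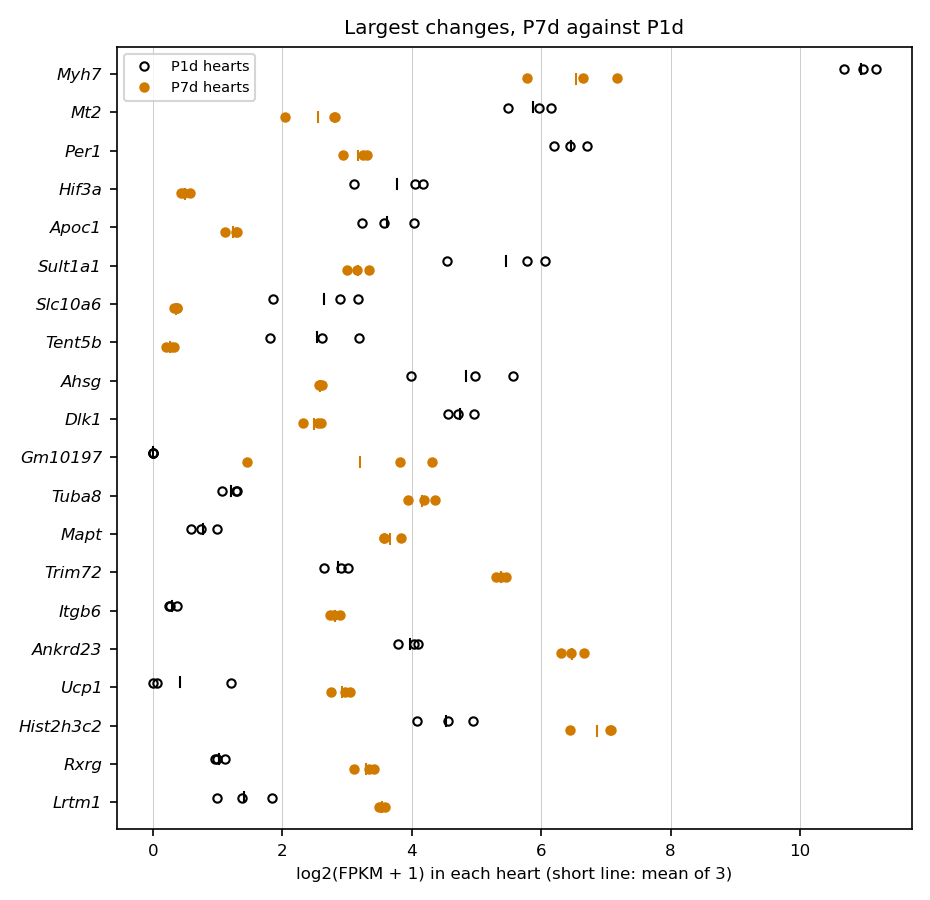
log2(FPKM + 1) in each of the 3 P1d hearts (open circles) and 3 P7d hearts (filled circles) for the coding genes with the largest rises and falls, with short lines at the means. *Myh7* falls by 4.41 on this scale and *Tuba8* rises by 2.95, and for every gene shown the P1d and P7d hearts are apart.

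Of the sarcomere genes, 13 of 45 tested genes rose and 15 fell (MoR 18 and 13, *Xist* term 8 and 13), so the list moved in both directions and its median was -0.06. Among those that fell, *Tnni1*, the slow skeletal troponin I of the foetal heart, was 1753, 2019 and 1797 FPKM in the P1d hearts and 927, 859 and 800.4 FPKM in the P7d hearts (log2 change -1.11 ± 0.08, adjusted p = 1.74e-05). *Myl1*, a myosin light chain, went from 64.98 ± 8.13 to 32.5 ± 4.04 FPKM. *Myoz1*, a Z-disc protein of fast muscle, fell from 4.57 ± 1.07 to 0.883 ± 0.257 FPKM. On the other side, *Lmod3*, which nucleates actin filaments, was 9.26, 9.74 and 11.2 FPKM at P1d and 22.4, 22.3 and 21.4 FPKM at P7d (log2 change 1.06 ± 0.09, adjusted p = 2.92e-05) and *Mybpc2*, a myosin-binding protein C, was 4.41, 3.83 and 3.04 FPKM at P1d and 8.59, 9.21 and 12.3 FPKM at P7d (log2 change 1.21 ± 0.14, adjusted p = 0.00019). *Tpm4*, a tropomyosin, rose from 74.5 ± 13.4 to 115 ± 12.3 FPKM. *Myh6* rose by 0.30 ± 0.07, a call that was lost with the *Xist* term.

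The calcium-handling genes were as divided, in that 11 of 40 tested genes rose and 13 fell (MoR 15 and 10, *Xist* term 6 and 11). *Sln*, sarcolipin, an inhibitor of the calcium pump that marks the atria, was 575, 681 and 526 FPKM in the P1d hearts and 262, 256 and 254 FPKM in the P7d hearts (log2 change -1.197 ± 0.09, adjusted p = 1.64e-05). *Casq1*, the skeletal muscle calsequestrin, fell from 35.8 ± 2.43 to 16.4 ± 1.99 FPKM, and *Slc8a1*, the sodium-calcium exchanger, from 630.3 ± 57.4 to 416 ± 19.99 FPKM. *Cacna1c*, the pore of the L-type calcium channel, fell from 166 ± 16.8 to 109 ± 5.68 FPKM. The gene that rose most was *Hrc*, the histidine-rich calcium-binding protein of the sarcoplasmic reticulum, at 53.4, 50.6 and 58.9 FPKM at P1d and 126, 126 and 127 FPKM at P7d (log2 change 1.205 ± 0.06, adjusted p = 5.35e-06). *Nol3*, an inhibitor of cell death, also rose (log2 change 1.13 ± 0.11, adjusted p = 8.26e-05). The pump *Atp2a2* was 2023, 2093 and 2106 FPKM at P1d and 2506, 2433 and 2181 FPKM at P7d (log2 change 0.19 ± 0.07, adjusted p = 0.0433), a small rise lost in most fits that left out a heart, and the release channel *Ryr2* did not pass the threshold (log2 change 0.11 ± 0.06, adjusted p = 0.166).

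Among ion channels and pumps, 13 of 27 tested genes rose and 6 fell (MoR 15 and 4, *Xist* term 11 and 1). *Hcn2*, a pacemaker current channel, was 1.01, 0.68 and 0.74 FPKM in the P1d hearts and 6.18, 6.59 and 6.06 FPKM in the P7d hearts (log2 change 2.01 ± 0.11, adjusted p = 6.15e-06). *Kcne1*, a subunit of the slow delayed rectifier, was 91.5, 84.6 and 104 FPKM at P1d and 248, 233 and 233 FPKM at P7d (log2 change 1.35 ± 0.09, adjusted p = 1.05e-05). No P7d heart overlapped a P1d heart for either. *Kcnj2*, the inward rectifier that sets the resting potential, rose from 5.98 ± 1.42 to 12.6 ± 1.98 FPKM. *Kcnd3*, a transient outward channel, fell from 1.73 ± 0.48 to 0.533 ± 0.224 FPKM. At the intercalated disc, where muscle cells join, 4 of 23 tested genes rose and 10 fell (MoR 7 and 8, *Xist* term 3 and 9). *Xirp2* was 2.08, 1.54 and 1.62 FPKM at P1d and 8.39, 8.32 and 9.81 FPKM at P7d (log2 change 1.84 ± 0.13, adjusted p = 1.37e-05). *Gja1*, the connexin 43 of ventricular muscle, rose from 170.2 ± 10.6 to 236 ± 8.22 FPKM. *Gja5*, the connexin 40 of atria and conduction tissue, fell from 38.4 ± 3.22 to 17.5 ± 2.09 FPKM, and *Lrrc10* fell from 168 ± 49.9 to 50.2 ± 2.25 FPKM.

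Genes that mark the atria or encode natriuretic peptides mostly fell. Of 16 tested, 13 fell and 1, *Kcna5*, rose (MoR 1 and 11, *Xist* term 0 and 11), with a median of -0.80. *Nppa*, atrial natriuretic peptide, was 2870.3, 2485 and 2259.6 FPKM in the P1d hearts and 1032, 1033 and 1076 FPKM in the P7d hearts (log2 change -1.27 ± 0.09, adjusted p = 1.67e-05). *Pam*, which amidates peptide hormones, was 748, 783 and 719.7 FPKM at P1d and 318, 308 and 306 FPKM at P7d (log2 change -1.27 ± 0.05, adjusted p = 2.24e-06). Both were lower in every P7d heart than in any P1d heart. *Nppb*, the peptide of stretched ventricles, was 376, 440.1 and 183 FPKM at P1d and 106, 165 and 234 FPKM at P7d, and its hearts overlapped (log2 change -0.96 ± 0.34, adjusted p = 0.0448). The share of atrial tissue in a heart was not measured, and its part in these changes was not tested. Of the cardiac transcription factors, 2 of 23 tested genes rose and 9 fell (MoR 3 and 6, *Xist* term 1 and 5). *Klf15*, a factor of amino acid metabolism that glucocorticoids induce, was 21.6, 23.4 and 12.5 FPKM at P1d and 4.18, 3.89 and 3.9 FPKM at P7d (log2 change -1.97 ± 0.19, adjusted p = 6.71e-05). *Hey2*, a Notch target of the ventricle, fell from 18.04 ± 1.08 to 6.24 ± 0.765 FPKM, *Gata6* from 58.2 ± 2.23 to 28.6 ± 1.25 FPKM and *Tbx5* from 27.02 ± 2.16 to 16.96 ± 1.16 FPKM, while *Gata4* did not pass the threshold (log2 change -0.03 ± 0.06, adjusted p = 0.69). For adrenergic and muscarinic signalling, 4 of 24 tested genes rose and 6 fell (MoR 10 and 4, *Xist* term 3 and 4), and the beta-adrenergic receptor *Adrb1* did not pass (log2 change 0.43 ± 0.17, adjusted p = 0.0598).

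Genes of cell division rose from P1d to P7d. Of 61 tested genes of mitosis and cytokinesis that were on no list of the study, 52 rose and 0 fell (MoR 55 and 0), with 0 lower also at an unadjusted p under 0.05 in limma. With the *Xist* term 39 rose, and without the 2 hearts with *Xist*, which leaves 1 P7d heart, 29 did. *Ccnf*, a cyclin of the G2 phase, was 1.17, 1.79 and 1.86 FPKM in the P1d hearts and 4.8, 5.33 and 5.67 FPKM in the P7d hearts (log2 change 1.27 ± 0.12, adjusted p = 5.08e-05). *Top2a*, the topoisomerase that untangles replicated chromosomes, was 13.4, 15.6 and 19.98 FPKM at P1d and 34.8, 33.4 and 42.9 FPKM at P7d (log2 change 1.14 ± 0.13, adjusted p = 0.000184). *Mki67*, the marker of cycling cells, was 5.57, 6.08 and 7.26 FPKM at P1d and 13.4, 13.3 and 13.8 FPKM at P7d (log2 change 1.00 ± 0.11, adjusted p = 0.000127). The hearts of the stages were apart for all of them. For DNA replication, 24 of 35 tested genes rose and 1 fell (MoR 29 and 0, *Xist* term 21 and 0), and 8 rose without the hearts with *Xist*. The gene that fell, *Gins4*, named here after its values were seen, did so by 0.20 ± 0.07. *Uhrf1*, which copies DNA methylation onto new strands, went from 7.63 ± 1.83 to 21.4 ± 4.52 FPKM, and *Rrm2*, a subunit of ribonucleotide reductase, from 16.98 ± 4.58 to 40.4 ± 3.98 FPKM. At E18.5d, *Top2a* had a mean of 86.2 FPKM, *Mki67* 22.5 FPKM and *Rrm2* 67.8 FPKM. Which cells divided cannot be read from whole hearts.

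Histone genes that are switched on during DNA replication rose most as a list. Of 61 tested, 52 rose and 4 fell (MoR 52 and 3, *Xist* term 43 and 3), with a median of 1.21. *Hist2h3c2* was 16, 22.5 and 29.9 FPKM in the P1d hearts and 86.2, 134 and 133 FPKM in the P7d hearts (log2 change 2.33 ± 0.22, adjusted p = 6.36e-05), *Hist1h2ah* rose from 35.1 ± 11.3 to 135 ± 26.4 FPKM and *Hist1h3g* from 24.7 ± 10.7 to 88.7 ± 9.11 FPKM. P1d replicate 1 was lowest for all 3. The linker histone *Hist1h1c*, whose RNA is also made outside replication, fell from 408 ± 78.7 to 227 ± 4.58 FPKM. Histone genes are near-identical copies, so the reads assigned to each are uncertain. Without the hearts with *Xist* 28 rose. Tubulins rose too, since 10 of 14 tested genes rose and 1 fell (MoR 11 and 1, *Xist* term 8 and 1). *Tuba4a* was 26.7, 35.7 and 35.02 FPKM at P1d and 105, 143 and 133 FPKM at P7d (log2 change 1.94 ± 0.14, adjusted p = 1.77e-05) and *Tubb4a* 0.97, 1.4 and 1.62 FPKM at P1d and 5.23, 5.98 and 5.74 FPKM at P7d (log2 change 1.52 ± 0.12, adjusted p = 2.99e-05).

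Promoters of these genes are shown because the genes rose together. Each is the 250 bases before a RefSeq start site of GRCm38.p6, and the motif in question is in capitals. The letters CCAAT, or their reverse complement, were found within the window of 300 bases around the start (250 before and 50 after it) of 35 of the 52 mitosis genes with a window, which is 67.3%, against 41.1% of 27025 genes with a window. The letters TTTCCCGC were found in 4 of 27 replication genes (14.8%), against 1.24% of all genes. A match is a description of the letters only. The shares of all genes cover every gene with a window, tested in these hearts or not, whereas those of the lists cover tested genes. Lists with genes moving in both directions also stood above all genes. CTANNNNTA was in 47.2% of sarcomere genes with a window, against 23.5% of all genes. GAANNTTC was in 54.5% of heat shock genes, against 9.04%, and TGATGNAA in 23.5% of integrated stress response genes, against 4.51%. In *Ccnf* (chr17:24251410-24251659, minus strand) and *Top2a* (chr11:99024190-99024439, minus strand) capitals mark CCAAT on either strand, and in *Gins3* (chr8:95633309-95633558, plus strand) they mark TTTCCCGC on the other strand, read here as GCGGGAAA.
*Ccnf*: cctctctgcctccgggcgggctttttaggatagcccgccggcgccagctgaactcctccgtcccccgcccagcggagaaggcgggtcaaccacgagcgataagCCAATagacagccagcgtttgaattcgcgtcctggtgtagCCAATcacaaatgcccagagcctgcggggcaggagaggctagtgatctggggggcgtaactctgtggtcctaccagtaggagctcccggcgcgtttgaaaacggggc
*Top2a*: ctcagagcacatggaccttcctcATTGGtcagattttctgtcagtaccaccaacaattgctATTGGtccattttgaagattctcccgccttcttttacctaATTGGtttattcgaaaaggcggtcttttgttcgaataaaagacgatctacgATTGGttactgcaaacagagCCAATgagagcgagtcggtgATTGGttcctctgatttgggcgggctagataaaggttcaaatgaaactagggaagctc
*Gins3*: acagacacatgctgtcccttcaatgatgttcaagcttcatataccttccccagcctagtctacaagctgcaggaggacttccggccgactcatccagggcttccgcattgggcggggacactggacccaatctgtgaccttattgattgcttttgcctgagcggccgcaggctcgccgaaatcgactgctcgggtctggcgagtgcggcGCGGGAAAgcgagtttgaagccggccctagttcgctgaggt

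**Figure D4:**
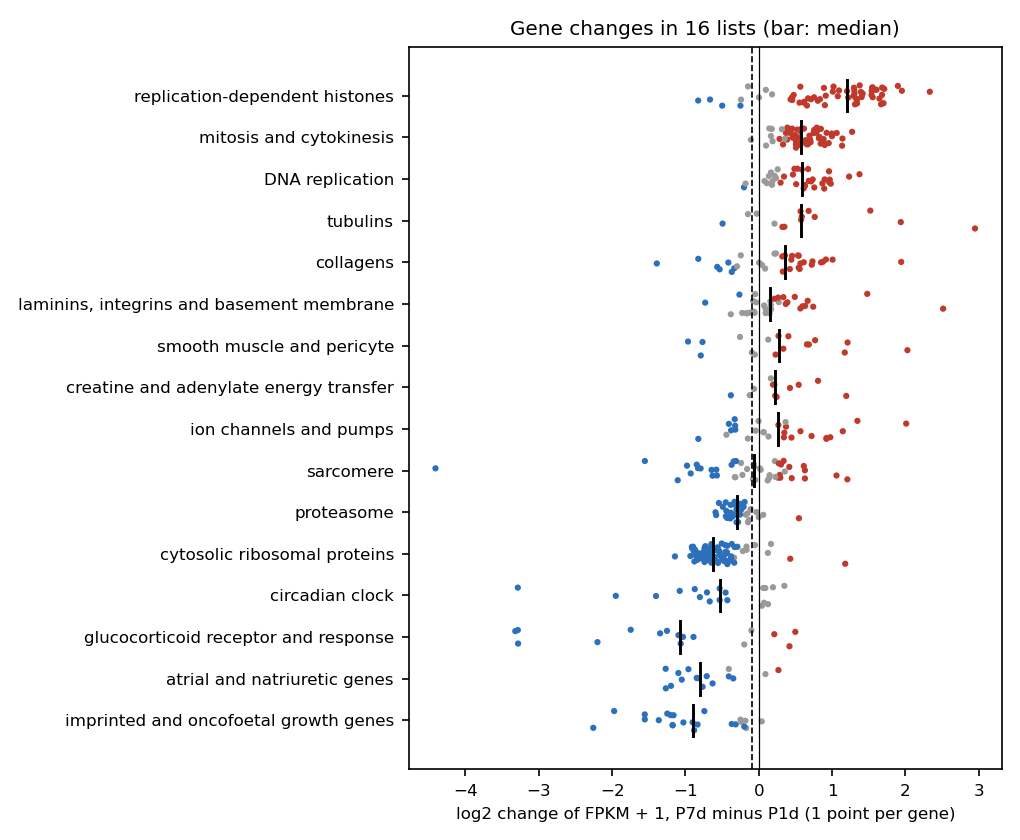
Log2 change of FPKM + 1 from P1d to P7d (x axis) for every tested gene of 16 lists, with 1 point per gene, red where it rose, blue where it fell and grey otherwise, and a bar at each median. The median is 1.21 for histones and 0.58 for mitosis genes, and -0.62 for cytosolic ribosomal proteins and -0.90 for imprinted genes.

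Clock genes fell. The clock is a loop in which CLOCK and ARNTL (BMAL1) switch on the *Per*, *Cry* and *Nr1d* genes, whose products repress it. Of 19 tested, 12 fell and 0 rose (MoR 0 and 12, *Xist* term 0 and 11), and 0 were higher at an unadjusted p under 0.05 in limma. *Ciart*, a repressor of the loop, was 4.02, 5.2 and 5.85 FPKM in the P1d hearts and 0.38, 0.48 and 0.81 FPKM in the P7d hearts (log2 change -1.95 ± 0.18, adjusted p = 6.08e-05), *Per2* was 8.6, 9.04 and 7.02 FPKM at P1d and 2.32, 2.29 and 2.84 FPKM at P7d (log2 change -1.40 ± 0.10, adjusted p = 1.85e-05). *Nr1d1* was 17, 14.1 and 24.2 FPKM at P1d and 7.92, 8.24 and 7.82 FPKM at P7d (log2 change -1.08 ± 0.18, adjusted p = 0.00118). The drivers did not pass the threshold, with *Clock* at log2 change 0.09 ± 0.12 (adjusted p = 0.552) and *Arntl* at log2 change 0.13 ± 0.13 (adjusted p = 0.439). The sources used here give no hour of collection, so stage and time of day cannot be told apart. Without the 2 hearts with *Xist* 7 fell. The letters CACGTG, the E-box that CLOCK and ARNTL bind, were in the windows of 5 of 16 clock genes (31.2%), against 8.09% of all genes. Of these 5, *Cry1* (log2 change 0.04, adjusted p = 0.717) and *Bhlhe41* (log2 change 0.07, adjusted p = 0.74) did not pass in limma. The letters are in capitals in the promoters of the genes of the list that fell most, *Per1* (chr11:69098699-69098948, plus strand, a start inside the annotated gene) and *Ciart* (chr3:95882229-95882478, minus strand).
*Per1*: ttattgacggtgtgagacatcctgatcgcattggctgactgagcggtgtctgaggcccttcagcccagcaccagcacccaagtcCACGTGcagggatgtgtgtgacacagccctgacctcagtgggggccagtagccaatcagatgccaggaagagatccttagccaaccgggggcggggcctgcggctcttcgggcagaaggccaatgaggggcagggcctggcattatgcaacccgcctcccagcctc
*Ciart*: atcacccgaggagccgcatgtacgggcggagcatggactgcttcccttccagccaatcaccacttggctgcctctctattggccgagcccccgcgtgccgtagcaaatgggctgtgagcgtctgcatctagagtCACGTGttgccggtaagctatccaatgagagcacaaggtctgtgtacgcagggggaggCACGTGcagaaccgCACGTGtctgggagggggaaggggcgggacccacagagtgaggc

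Most genes of the list of glucocorticoid receptors and response fell as well, since 3 of 16 tested genes rose and 11 fell (MoR 3 and 11, *Xist* term 2 and 11). The list shares *Per1*, *Mt1*, *Mt2*, *Hif3a*, *Ddit4*, *Klf9*, *Pdk4*, *Lcn2* and *Dusp1* with other lists here, so its counts are not separate from theirs. *Zbtb16* was 14.7, 15.98 and 10.9 FPKM in the P1d hearts and 2.0, 2.03 and 2.62 FPKM in the P7d hearts (log2 change -2.20 ± 0.14, adjusted p = 1.06e-05), with no overlap. The receptor itself, *Nr3c1*, rose from 29.5 ± 4.11 to 39.5 ± 1.7 FPKM, as did *Dusp1*, a phosphatase that is also an immediate early gene, from 26.6 ± 1.39 to 38.1 ± 3.9 FPKM. Beside these values, the E18.5d mean was 17.4 FPKM for *Per1*, 4.37 FPKM for *Zbtb16* and 27.5 FPKM for *Mt2*. Among thyroid hormone genes, 4 of 8 tested genes rose and 3 fell (MoR 4 and 2, *Xist* term 3 and 2). *Hr*, a corepressor that thyroid hormone induces, was 0.6, 0.64 and 0.41 FPKM at P1d and 2.24, 2.71 and 2.13 FPKM at P7d (log2 change 1.12 ± 0.12, adjusted p = 0.00015). *Klf9* fell from 22.2 ± 1.9 to 10.3 ± 0.805 FPKM. Of the immediate early genes, 3 of 16 tested genes rose and 6 fell (MoR 5 and 6, *Xist* term 2 and 6). *Atf3* was 33.5, 32.7 and 19.1 FPKM at P1d and 2.95, 7.29 and 8.4 FPKM at P7d (log2 change -2.08 ± 0.36, adjusted p = 0.00147) and *Nr4a1* fell from 11.3 ± 1.29 to 5.17 ± 1.18 FPKM, whereas *Egr1* rose from 4.09 ± 1.61 to 9.0 ± 1.61 FPKM and *Fos* did not pass (log2 change -0.04 ± 0.15, adjusted p = 0.838).

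Imprinted and oncofoetal growth genes, expressed from a single parental copy or mainly before birth, fell. Of 23 tested, 18 fell and 0 rose (MoR 0 and 16, *Xist* term 0 and 17), and 0 were higher at an unadjusted p under 0.05 in limma. *H19*, a noncoding RNA, was 1590.2, 1768 and 1697 FPKM in the P1d hearts and 414, 413 and 460.4 FPKM in the P7d hearts (log2 change -1.97 ± 0.07, adjusted p = 1.56e-06). Its neighbour *Igf2*, the foetal insulin-like growth factor, was 559.7, 629 and 597 FPKM at P1d and 220.3, 243 and 229 FPKM at P7d (log2 change -1.36 ± 0.06, adjusted p = 2.74e-06). *Plagl1*, a zinc finger factor, was 166, 162 and 148 FPKM at P1d and 53.1, 56.5 and 50.6 FPKM at P7d (log2 change -1.55 ± 0.08, adjusted p = 4.36e-06). The P1d and P7d hearts were well apart for each. *Igf1r*, the receptor of IGF2, fell from 31.6 ± 5.25 to 18.4 ± 1.01 FPKM, while *Igf1* did not pass the threshold (log2 change 0.13 ± 0.10, adjusted p = 0.324). In the wider list of growth factor signalling, 6 of 29 tested genes rose and 9 fell (MoR 8 and 9, *Xist* term 7 and 8). *Vegfa*, which drives vessel growth, was 45.6, 42.9 and 42.4 FPKM at P1d and 85.6, 85.1 and 86.3 FPKM at P7d (log2 change 0.96 ± 0.06, adjusted p = 1.28e-05), *Fgf16* rose from 1.77 ± 0.0839 to 4.95 ± 0.381 FPKM and *Fgf1* from 16.6 ± 1.47 to 31.5 ± 2.43 FPKM.

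For Hippo and Notch signalling, 9 of 28 tested genes rose and 9 fell (MoR 10 and 8, *Xist* term 7 and 8). *Ccn2*, a target of YAP and a matrix factor, was 256, 338 and 181 FPKM in the P1d hearts and 48.7, 76.3 and 87.2 FPKM in the P7d hearts (log2 change -1.85 ± 0.24, adjusted p = 0.000333). *Amotl2*, another YAP target, fell from 62.98 ± 9.27 to 32.6 ± 0.704 FPKM. *Yap1* did not pass the threshold (log2 change -0.10 ± 0.07, adjusted p = 0.267). The Notch ligand *Dll4* and the receptor *Notch4* of endothelium rose, from 4.36 ± 0.672 to 8.86 ± 0.119 FPKM and from 5.97 ± 0.889 to 11.8 ± 1.23 FPKM. Among hypoxia factors and targets, 7 of 24 tested genes rose and 11 fell (MoR 8 and 6, *Xist* term 7 and 6). *Epas1* (HIF-2 alpha) rose from 20.9 ± 1.76 to 38.6 ± 1.75 FPKM, *Hif1a* did not pass (log2 change 0.16 ± 0.10, adjusted p = 0.246), and the targets were divided, with *P4ha1* higher (log2 change 0.89 ± 0.08, adjusted p = 3.71e-05) and *Bnip3* lower (log2 change -0.98 ± 0.18, adjusted p = 0.0024). Of the p53 targets and cell cycle inhibitors, 3 of 11 tested genes rose and 3 fell (MoR 4 and 3, *Xist* term 2 and 3), with *Sesn1* lower (log2 change -1.25 ± 0.20, adjusted p = 0.000983) and *Eda2r* higher (log2 change 1.02 ± 0.11, adjusted p = 0.000127).

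Most RNAs of the cytosolic ribosome fell. Of 92 tested genes named as ribosomal proteins, 83 fell and 2 rose (MoR 2 and 80, *Xist* term 2 and 81), and 9 of the 92 are kinases or a binding protein rather than parts of the ribosome. Among the 83 structural proteins, 80 fell, 77 on the median of ratios scale, and the median change was -0.641. Their summed level was 56130, 64190 and 57160 FPKM at P1d and 38270, 38050 and 36670 FPKM at P7d, in which P1d replicate 2 stood highest. *Rpl32* was 1186, 1408 and 1187 FPKM in the P1d hearts and 692, 678 and 636 FPKM in the P7d hearts (log2 change -0.91 ± 0.09, adjusted p = 6.37e-05). *Rpl22l1*, a paralogue of *Rpl22*, was 23.5, 28.7 and 24.7 FPKM at P1d and 11.1, 10.4 and 11.6 FPKM at P7d (log2 change -1.14 ± 0.08, adjusted p = 1.37e-05). The structural protein that rose was *Rpl3l*, the striated muscle paralogue of *Rpl3*, at 2.83, 2.77 and 3.03 FPKM at P1d and 6.76, 8.3 and 8.37 FPKM at P7d (log2 change 1.18 ± 0.14, adjusted p = 0.000199). Ribosomal proteins have many processed pseudogenes, so reads of single genes are uncertain. Mitochondrial ribosomal proteins moved less, as 2 of 75 tested genes rose and 29 fell (MoR 7 and 20, *Xist* term 1 and 18). In ribosome biogenesis 9 of 32 fell and 0 rose (MoR 2 and 5, *Xist* term 0 and 7), with 0 higher at an unadjusted p under 0.05 in limma, and *Npm1* fell from 99.1 ± 2.1 to 66.2 ± 4.52 FPKM.

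The proteasome, which degrades marked proteins, fell. In all, 1 of 36 tested genes rose and 27 fell (MoR 1 and 17, *Xist* term 0 and 22). *Psma6*, a ring subunit, was 137, 145 and 149 FPKM in the P1d hearts and 96.2, 96.99 and 92.3 FPKM in the P7d hearts (log2 change -0.59 ± 0.05, adjusted p = 4.19e-05). *Psmd4*, a ubiquitin receptor, fell from 109 ± 7.25 to 74.1 ± 0.774 FPKM. The gene that rose was *Psmb8*, the interferon-induced subunit (log2 change 0.55 ± 0.18, adjusted p = 0.0313), a call lost with the *Xist* term. Of autophagy and lysosome genes, 1 of 34 tested genes rose and 12 fell (MoR 2 and 11, *Xist* term 1 and 10). *Map1lc3b*, which coats autophagosomes, was 105, 115 and 82.3 FPKM at P1d and 60.9, 58.7 and 54.9 FPKM at P7d (log2 change -0.77 ± 0.11, adjusted p = 0.000478). *Gabarapl1* and *Sqstm1* fell from 38.4 ± 10 to 19.1 ± 1.07 FPKM and from 177 ± 45.1 to 111 ± 4.0 FPKM. All 3 were highest in P1d replicate 2.

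The chaperone lists moved in both directions. Of ER chaperones, 8 of 20 tested genes rose and 4 fell (MoR 11 and 2, *Xist* term 4 and 2), with *Hyou1* higher (log2 change 0.65 ± 0.06, adjusted p = 8.51e-05) and *Herpud1*, a part of ER-associated degradation, lower (log2 change -0.93 ± 0.12, adjusted p = 0.000381). Among heat shock proteins and chaperonins, 5 of 30 tested genes rose and 15 fell (MoR 7 and 12, *Xist* term 3 and 12). *Hspb1* fell from 297 ± 59.4 to 161 ± 7.95 FPKM, and the muscle small heat shock proteins *Hspb6* and *Hspb8* rose from 45.8 ± 6.49 to 83 ± 4.12 FPKM and from 27.6 ± 3.96 to 50.2 ± 3.29 FPKM. In the integrated stress response, 3 of 20 tested genes rose and 8 fell (MoR 3 and 6, *Xist* term 2 and 5), and *Ppp1r15a* fell from 24.1 ± 3.35 to 13.2 ± 2.09 FPKM. For antioxidant and glutathione genes, 3 of 39 tested genes rose and 18 fell (MoR 5 and 14, *Xist* term 2 and 15). *Mgst1* and *Gstm1*, glutathione transferases, fell from 33.1 ± 5.66 to 7.11 ± 1.09 FPKM and from 89.4 ± 21.2 to 24.5 ± 1.34 FPKM. Of the tRNA synthetases, 1 of 19 tested genes rose and 6 fell (MoR 4 and 2, *Xist* term 0 and 1). Of muscle splicing regulators, 3 of 20 tested genes rose and 7 fell (MoR 5 and 6, *Xist* term 1 and 6), with *Ptbp2* lower at 52.9, 60.03 and 59.7 FPKM at P1d and 29.2, 32.2 and 30.03 FPKM at P7d (log2 change -0.89 ± 0.07, adjusted p = 2e-05) and *Rbm20*, the regulator of titin splicing, not past the threshold (log2 change -0.03 ± 0.07, adjusted p = 0.722).

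Glycogen genes fell on balance, with 9 of 19 lower and 2 higher (MoR 4 and 7, *Xist* term 2 and 7). *Gyg*, the glycogenin that primes the polymer, was 192, 199 and 185 FPKM in the P1d hearts and 68.9, 73.5 and 73.3 FPKM in the P7d hearts (log2 change -1.41 ± 0.05, adjusted p = 1.56e-06). *Stbd1*, which binds glycogen, was 53.4, 58.6 and 59.1 FPKM at P1d and 14.6, 16.8 and 13.7 FPKM at P7d (log2 change -1.86 ± 0.08, adjusted p = 2.24e-06), and the liver-type phosphorylase *Pygl* was 23.8, 27.4 and 22.98 FPKM at P1d and 8.41, 7.79 and 7.04 FPKM at P7d (log2 change -1.55 ± 0.09, adjusted p = 6.02e-06). The muscle phosphorylase *Pygm*, whose values are repeated under another identifier, rose instead, from 83.9 ± 2.79 to 108 ± 6.44 FPKM. For branched-chain amino acid breakdown, 1 of 19 tested genes rose and 10 fell (MoR 1 and 8, *Xist* term 0 and 8), and *Bckdhb*, a subunit of the dehydrogenase that commits them, fell from 26.6 ± 1.38 to 13.2 ± 0.133 FPKM. In creatine and adenylate energy transfer, 8 of 12 tested genes rose and 1 fell (MoR 9 and 1, *Xist* term 4 and 1). *Ckmt2*, the mitochondrial creatine kinase of muscle, was 131, 135 and 118 FPKM at P1d and 304, 298 and 281 FPKM at P7d (log2 change 1.19 ± 0.07, adjusted p = 8.97e-06), while the cytosolic *Ckm* did not pass (log2 change -0.06 ± 0.06, adjusted p = 0.405).

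Of the TCA cycle and its feeder enzymes, 7 of 21 tested genes rose and 5 fell (MoR 12 and 4, *Xist* term 5 and 5). *Ogdh*, a subunit of the oxoglutarate dehydrogenase, was 269, 289 and 273 FPKM in the P1d hearts and 500.5, 538 and 494 FPKM in the P7d hearts (log2 change 0.88 ± 0.06, adjusted p = 1.42e-05). *Me3*, a mitochondrial malic enzyme, rose from 14.7 ± 1.57 to 32.7 ± 1.85 FPKM. *Pcx*, pyruvate carboxylase, fell from 4.29 ± 0.272 to 2.24 ± 0.295 FPKM. In glucose, lactate and pyruvate transport, 3 of 17 tested genes rose and 6 fell (MoR 5 and 3, *Xist* term 3 and 3). The insulin-responsive transporter *Slc2a4* rose from 24.98 ± 3.06 to 40.9 ± 3.35 FPKM and the foetal-type *Slc2a1* fell from 5.83 ± 0.798 to 3.54 ± 0.611 FPKM. *Pdk3*, which restrains pyruvate oxidation, fell from 27.1 ± 1.77 to 12.1 ± 0.999 FPKM. For fatty acid uptake and storage, 9 of 27 tested genes rose and 6 fell (MoR 12 and 3, *Xist* term 9 and 1). *Ucp3*, the uncoupling protein of muscle, was 9.3, 6.16 and 6.27 FPKM at P1d and 26.7, 21.8 and 19.97 FPKM at P7d (log2 change 1.54 ± 0.15, adjusted p = 7.27e-05), after a mean of 0.047 FPKM at E18.5d. Of sterol and fatty acid synthesis, 2 of 33 tested genes rose and 9 fell (MoR 6 and 6, *Xist* term 1 and 4).

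Mitochondrially encoded mRNAs rose in part. Of 13 tested, 5 rose and 0 fell (MoR 5 and 0, *Xist* term 4 and 0), with 1 lower at an unadjusted p under 0.05 in limma. Without the hearts with *Xist* 2 rose. *mt-Nd4* was 589.9, 517 and 699 FPKM in the P1d hearts and 1039, 1169 and 1044 FPKM in the P7d hearts (log2 change 0.86 ± 0.12, adjusted p = 0.000492), and *mt-Nd1* did not pass (log2 change -0.27 ± 0.16, adjusted p = 0.192). Of mitochondrial fusion, fission and quality genes, 1 of 26 tested genes rose and 10 fell (MoR 5 and 7, *Xist* term 1 and 7), with *Mfn2* higher (log2 change 0.34 ± 0.06, adjusted p = 0.00239) and *Pink1* lower (log2 change -0.49 ± 0.10, adjusted p = 0.00281). Among the regulators, 3 of 13 tested genes rose and 3 fell (MoR 4 and 2, *Xist* term 2 and 2). *Ppargc1a*, a coactivator of mitochondrial genes, was 46.3, 53.3 and 47.7 FPKM at P1d and 27.6, 29.7 and 32.7 FPKM at P7d (log2 change -0.69 ± 0.08, adjusted p = 0.000137), while its muscle partner *Perm1* rose from 24 ± 1.63 to 43.2 ± 2.29 FPKM.

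Matrix genes more often rose than fell. Of collagens, 19 of 33 tested genes rose and 7 fell (MoR 19 and 6, *Xist* term 15 and 5). *Col15a1*, a collagen of the muscle and capillary basement membrane, was 24.6, 31 and 34.1 FPKM in the P1d hearts and 112, 118 and 119.8 FPKM in the P7d hearts (log2 change 1.94 ± 0.10, adjusted p = 4.96e-06). *Col5a3* rose from 4.57 ± 1.2 to 10.04 ± 0.337 FPKM. *Col23a1*, a membrane collagen, fell from 6.06 ± 0.604 to 1.69 ± 0.222 FPKM. Without the hearts with *Xist* 9 collagens rose. For laminins, integrins and basement membrane, 13 of 35 tested genes rose and 2 fell (MoR 19 and 1, *Xist* term 12 and 1). *Itga7*, the laminin receptor of muscle, was 11, 13.1 and 12.3 FPKM at P1d and 34.7, 37.2 and 34.8 FPKM at P7d (log2 change 1.48 ± 0.07, adjusted p = 3.6e-06). Of other matrix genes, 24 of 51 tested genes rose and 9 fell (MoR 30 and 8, *Xist* term 20 and 7). *Mfap4*, a microfibril protein, rose from 26.7 ± 4.45 to 66.95 ± 1.13 FPKM, and *Timp4* and *Timp3*, inhibitors of matrix proteases, fell from 5.58 ± 2.11 to 0.817 ± 0.0808 FPKM and from 89.6 ± 18.4 to 41.3 ± 2.42 FPKM.

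Vessel genes moved in both directions. The endothelial list summed to 876 to 1019 FPKM at P1d and 1021 to 1064 FPKM at P7d, and 10 of 27 tested genes rose and 4 fell (MoR 12 and 4, *Xist* term 7 and 4). *Apln*, a peptide of sprouting tip cells, was 1.9, 2.68 and 4.38 FPKM in the P1d hearts and 14.1, 15.3 and 17.1 FPKM in the P7d hearts (log2 change 2.09 ± 0.19, adjusted p = 4.75e-05), and its receptor *Aplnr* was 20.3, 22.01 and 24.7 FPKM at P1d and 64.3, 58.5 and 54.9 FPKM at P7d (log2 change 1.37 ± 0.09, adjusted p = 9.57e-06). *Kdr*, the main VEGF receptor, rose from 48.01 ± 1.23 to 83.8 ± 2.77 FPKM. *Lyve1*, of lymphatic vessels and resident macrophages, was 19.9, 23.2 and 13.3 FPKM at P1d and 3.41, 4.64 and 4.03 FPKM at P7d (log2 change -1.95 ± 0.17, adjusted p = 4.78e-05). *Vwf* fell from 58.1 ± 12.2 to 32.3 ± 1.07 FPKM. *Pecam1*, on all endothelium, did not pass (log2 change -0.06 ± 0.08, adjusted p = 0.555). Of smooth muscle and pericyte genes, 10 of 17 tested genes rose and 3 fell (MoR 10 and 3, *Xist* term 7 and 1). The pericyte genes *Rgs5* and *Vtn* rose from 43.9 ± 2.15 to 103 ± 3.57 FPKM and from 2.16 ± 0.671 to 11.8 ± 1.29 FPKM. The smooth muscle *Cnn1* fell from 12.7 ± 1.51 to 6.01 ± 0.196 FPKM. *Acta2*, a far more abundant smooth muscle gene, did not pass in limma (log2 change -0.26 ± 0.11, adjusted p = 0.0888), and its hearts overlapped. Fibroblast and epicardial genes summed to 548 to 718 FPKM at P1d and 624 to 642 FPKM at P7d, and 7 of 20 tested genes rose and 9 fell (MoR 8 and 9, *Xist* term 6 and 8). *Pi16*, of an adventitial fibroblast type, was 3.29, 4.62 and 2.87 FPKM at P1d and 13.5, 12.6 and 12.9 FPKM at P7d (log2 change 1.63 ± 0.16, adjusted p = 6.71e-05). The epicardial and mesothelial *Upk1b* and *Msln* fell from 8.23 ± 0.757 to 2.76 ± 0.0916 FPKM and from 23.8 ± 5.32 to 9.36 ± 0.696 FPKM. In the same list *Aldh1a2* rose instead, from 10.34 ± 3.14 to 30 ± 1.57 FPKM (log2 change 1.48 ± 0.16, adjusted p = 0.000111).

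Neutrophil granule genes fell, with 5 of 6 lower and 0 higher (MoR 0 and 5, *Xist* term 0 and 5), none higher at an unadjusted p under 0.05 in limma, and sums of 54.1 to 81.02 FPKM at P1d and 17.1 to 22.5 FPKM at P7d. *S100a8* was 16.98, 25.6 and 16.7 FPKM in the P1d hearts and 3.79, 4.76 and 3.98 FPKM in the P7d hearts (log2 change -1.98 ± 0.24, adjusted p = 0.000242). The macrophage list summed to 166 to 234 FPKM at P1d and 151 to 162 FPKM at P7d, and 3 of 20 tested genes rose and 6 fell (MoR 3 and 6, *Xist* term 2 and 4). Of 4 lymphocyte genes tested 2 rose and 0 fell (MoR 2 and 0, *Xist* term 2 and 0), with 0 lower at an unadjusted p under 0.05 in limma, among them *Ighm*, the IgM heavy chain (log2 change 1.00 ± 0.13, adjusted p = 0.000368). Of interferon-stimulated genes, 5 of 42 tested genes rose and 14 fell (MoR 7 and 12, *Xist* term 3 and 8), and 1 fell without the hearts with *Xist*. *Irf7*, a factor of this response, was 4.62, 6.65 and 4.35 FPKM at P1d and 2.68, 1.77 and 1.45 FPKM at P7d (log2 change -1.07 ± 0.21, adjusted p = 0.00289). *Isg15*, a ubiquitin-like protein, was 3.39, 4.26 and 3.53 FPKM at P1d and 1.69, 1.51 and 1.85 FPKM at P7d (log2 change -0.81 ± 0.17, adjusted p = 0.0044). *Stat2* rose from 1.88 ± 0.0289 to 3.0 ± 0.323 FPKM. The letters GAAANNGAA, the core of the interferon response element, were in the windows of 18 of 31 of these genes (58.1%), against 9.76% of all genes. Genes with these letters did not all fall, as *Stat2* and *Gbp7* rose (log2 change 0.47 and 0.33) and *Ifit3* did not pass. The letters are in capitals on either strand, overlapping, in *Isg15* (chr4:156200819-156201068, minus strand).
*Isg15*: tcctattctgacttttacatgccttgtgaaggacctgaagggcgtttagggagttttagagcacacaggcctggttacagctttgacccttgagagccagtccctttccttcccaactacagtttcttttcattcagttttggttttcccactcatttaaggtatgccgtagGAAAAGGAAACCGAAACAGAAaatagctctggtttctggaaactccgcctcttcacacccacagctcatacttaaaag

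Red cell and iron genes moved in both directions. Of the globin and erythroid list, 3 of 12 tested genes rose and 2 fell (MoR 3 and 2, *Xist* term 3 and 2), and its sum was 12850 to 24820 FPKM at P1d and 8800 to 10650 FPKM at P7d, highest in P1d replicate 2. *Hba-a1* did not pass the threshold, at 2803, 4461 and 2161 FPKM at P1d and 1799, 1373 and 1743 FPKM at P7d (log2 change -0.88 ± 0.35, adjusted p = 0.0665). Nor did *Hba-a2*, with an adjusted p of 0.123 in limma for a change of -0.73 ± 0.35. Another globin, *Hbb-bt*, was lower and robust. Its mean was 1283 ± 374 FPKM in the P1d hearts and 569 ± 56.7 FPKM in the P7d hearts. The limma change of *Hbb-bt* was -1.14 ± 0.35 on the log2 scale, with an adjusted p of 0.0246. For each of these globins, every P7d heart lay below every P1d heart. *Tfrc*, the transferrin receptor, was 24.03, 13.1 and 28.1 FPKM in the P1d hearts and 100.3, 102 and 71.1 FPKM in the P7d hearts (log2 change 2.06 ± 0.25, adjusted p = 0.000223). Of iron genes, 3 of 15 tested genes rose and 7 fell (MoR 3 and 7, *Xist* term 3 and 6). *Ftl1*, the ferritin light chain that stores iron, fell from 739 ± 87.5 to 406 ± 12.6 FPKM, and *Hfe2*, haemojuvelin, rose from 17.1 ± 3.81 to 37.97 ± 3.06 FPKM. Complement genes were mostly not past the threshold, as 1 of 13 tested genes rose and 4 fell (MoR 2 and 2, *Xist* term 0 and 2), but *C3* was 47.99, 64.3 and 44.5 FPKM at P1d and 14.99, 21.1 and 18.3 FPKM at P7d (log2 change -1.47 ± 0.16, adjusted p = 0.000115). In antigen presentation, 4 of 15 tested genes rose and 1 fell (MoR 6 and 1, *Xist* term 2 and 1), with *Cd74* higher (log2 change 0.66 ± 0.12, adjusted p = 0.00182) and *H2-T23* lower (log2 change -0.80 ± 0.15, adjusted p = 0.0026). The summed levels of markers of other tissues were lower at P7d. Schwann and neuronal genes summed to 16.98 to 22.5 FPKM at P1d and 14.3 to 16.3 FPKM at P7d, skeletal muscle genes to 5.86 to 7.81 FPKM at P1d and 2.59 to 4.01 FPKM at P7d, liver genes to 20.6 to 91.5 FPKM at P1d and 7.87 to 9.39 FPKM at P7d, lung and airway genes to 1.1 to 568 FPKM at P1d and 0.05 to 0.32 FPKM at P7d and adipocyte genes to 503 to 656 FPKM at P1d and 385 to 448 FPKM at P7d. No sum overlapped between stages. Most of the adipocyte sum was *Fabp4*, which endothelium also makes, with means of 526.8 FPKM at P1d and 392.5 FPKM at P7d. *Ahsg* made up much of the liver sum. It was 30.4 FPKM in P1d replicate 1, where *Alb* was 0.08 FPKM, and had a mean of 17.2 FPKM at E18.5d. Of the tested genes, 1 of 7 Schwann and neuronal genes rose and 1 fell (MoR 1 and 1, *Xist* term 1 and 0), 2 of 3 skeletal muscle genes fell (MoR 1, *Xist* term 2), 1 of 4 liver genes fell (MoR 1, *Xist* term 1) and 0 of 4 lung and airway genes passed in limma, with 0 at an unadjusted p under 0.05. *Myod1* and *Myog*, which define skeletal muscle, were at most 0.14 FPKM. The part of these markers in the changes above was not tested.

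The E18.5d hearts place the week in a longer course. For some genes the P1d mean lay outside those of the other stages. *Per1* had means of 17.4 FPKM at E18.5d and 87.6 FPKM at P1d before its fall to 8.05 FPKM, and *Top2a* had 86.2 FPKM at E18.5d before the low of P1d. For others the change of the first week went on in the direction seen since E18.5d, as for *Myh7*, at 3561 FPKM before birth, and *Hrc* stood at 60.7 FPKM at E18.5d, close to its P1d hearts. These levels are given side by side only, since both steps share the P1d hearts.

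**Figure D5:**
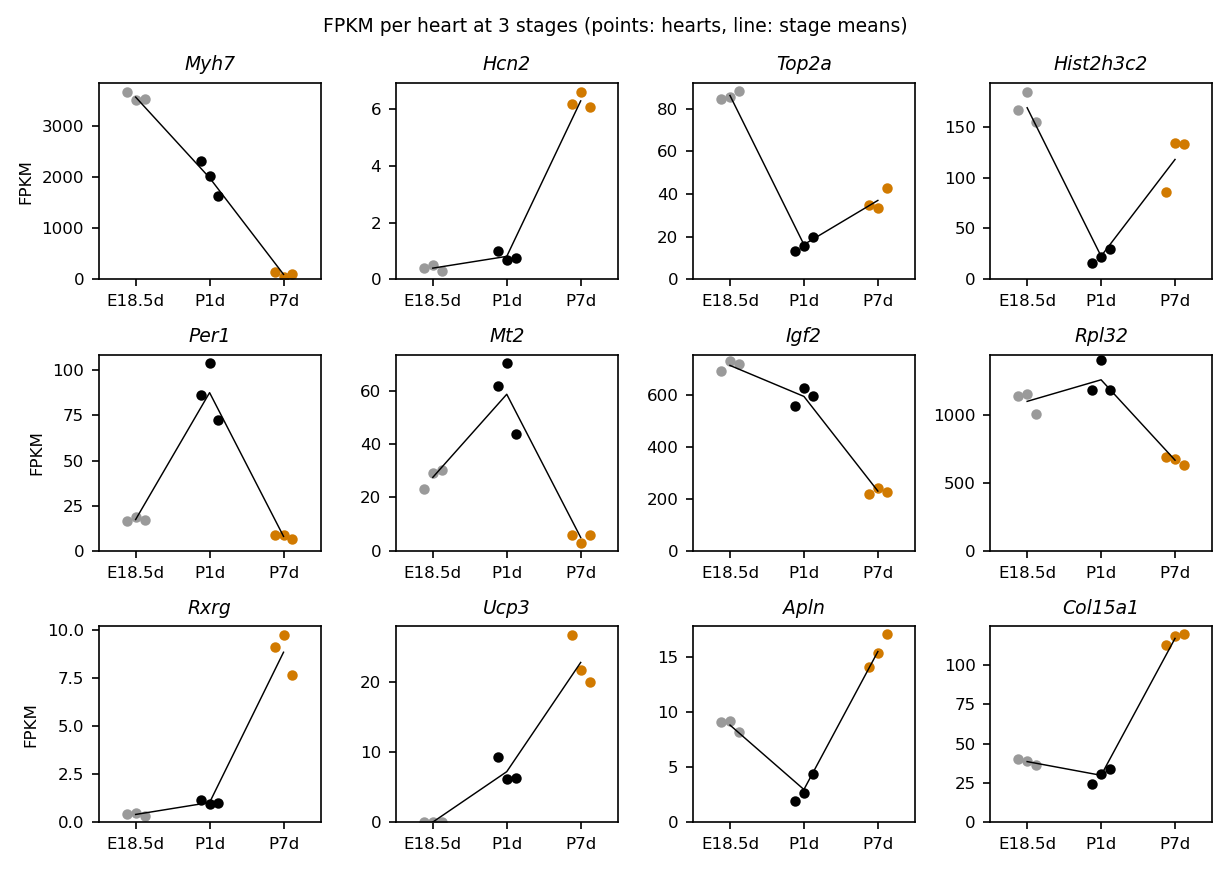
FPKM in each heart (y axis, linear, from 0) at E18.5d, P1d and P7d for 12 genes, with 3 hearts per stage as points and lines through the stage means. *Top2a* is lowest at P1d, *Per1* is highest at P1d, and *Myh7* falls at each step.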

How the data were processed

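RNA-seq of whole hearts was used. The values that the authors deposited are FPKM with 2 decimals, and each heart has its own column. The submitters' processing notes name STAR and GRCm38 (mm10), and the counting tool and annotation are not given in the sources used here. Gene names came from GENCODE M21, where 48144 identifiers were found once versions were dropped. The members and gene lists were chosen with earlier results of these data known. Values were transformed to log2(FPKM + 1), genes averaging under 1 FPKM in the 6 hearts were dropped, and limma 3.58.1 (R 4.3.3, eBayes with trend) was run on all 9 hearts together. Adjustment was Benjamini-Hochberg. In simulated data, 100 of 13474 genes changed by 0.5 and 100 by 1 on the log2 scale, and 48% and 89% were recovered. Far more genes passed in the hearts, so the adjusted threshold differs there and these shares do not carry over. Depth came from steps among low FPKM, of which 77.8% to 80.9% came out whole within 0.1 fragment. Named genes were the 10 coding robust genes and 3 noncoding genes of largest change in each direction outside the study's lists with at least 5 FPKM at a stage, up to 4 robust genes per list and direction, the first 2 genes of each list, and markers of other tissues and sex. Motifs were searched in both strands of RefSeq promoters. Figures were drawn with matplotlib 3.10.9.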

Additional observations from a re-analysis of the deposited data

How the results depend on the processing

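Higher and lower counts on the deposited scale were 2097 and 3895. The lower count moved to 1738 with columns set to an equal sum, to 2417 with protein-coding nuclear genes set to an equal sum and to 2436 with the *Xist* term. Both moved without the 2 P7d hearts with *Xist*, to 873 and 1408, and with an absolute log2 change of at least 1, to 242 and 318. Leaving out each heart in turn gave 1644 to 2075 higher and 3066 to 3802 lower. The replicate numbers do not pair the hearts (correlations of same-numbered deviations -0.033, 0.113 and 0.066), and a fit with the replicate number as a block gave 2029 higher and 3822 lower. Quantile normalization reversed the log2 change of Cd36 (0.0447 against -0.22, adjusted p = 0.717) and the log2 change of Ckm (0.2848 against -0.06, adjusted p = 0.00542), and the cause was not tested. Of 424 named genes, 118 no longer passed without the P7d hearts with *Xist*, where 1 P7d heart is assumed to vary like the others, and 50 with the *Xist* term. With 3 hearts per stage, small changes of low genes can be missed at this depth.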
